A study of Mus musculus with 12 samples.

Results

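The genes described here are the HIF subunits and the enzymes and adaptor that sense oxygen for them. The 10 genes were taken by name from a table of 43686 rows, and they are the alpha subunits Hif1a, Epas1 and Hif3a, the beta subunits Arnt and Arnt2, the prolyl hydroxylases Egln1, Egln2 and Egln3, the substrate receptor Vhl and the asparaginyl hydroxylase Hif1an. All 10 were found, each as 1 row. The rule used names and not levels, but the genes were proposed with earlier results of these data known. RNA-seq of polyadenylated RNA from the ventricular wall was compared between 6 mutant hearts (KO), Sdhaf4fl/fl with the Ckmm-Cre transgene, and 6 hearts of Sdhaf4fl/fl littermates without Cre (WT), all on a C57BL/6 background by the sample labels (C57BL/6J in the study's methods) and, by the labels, 2 months old. The age that the study's results section gives for the RNA-seq is younger than that of the labels. Its reporting summary gives other ages for omics work as a whole, and 1 of them matches the labels. Sdhaf4 encodes an assembly factor of succinate dehydrogenase, which oxidises succinate in the tricarboxylic acid cycle and the respiratory chain. Ckmm-Cre is driven by the muscle creatine kinase promoter and acts in cardiac and skeletal muscle, so the other cells of the heart keep the gene. The controls carried the floxed allele but no Cre, so an effect of the transgene itself cannot be told apart from that of the deletion.

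HIF is a transcription factor made of an oxygen-regulated alpha subunit and a constitutive beta subunit. When oxygen is present, the EGLN prolyl hydroxylases (PHD enzymes) hydroxylate the alpha subunit, VHL then recognises it as part of a ubiquitin ligase and the protein is degraded, while HIF1AN (FIH) hydroxylates an asparagine that contacts the p300 coactivator. These hydroxylases use oxygen, iron and 2-oxoglutarate and release succinate, and high succinate is known to inhibit them. Because the alpha subunits are controlled mainly as proteins, the RNA levels below measure neither the proteins nor their activity. HIF binds DNA at a short core, ACGTG or GCGTG, known as the hypoxia response element.

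The 250 bases before the transcription start are shown for 4 members, so that the genes whose RNA rose most (Hif1a and Egln3) stand beside the prolyl hydroxylases whose RNA did not pass the test (Egln1 and Egln2). The sequences are RefSeq reference sequence of GRCm38.p6, written 5′ to 3′ on the strand of the gene, and capitals mark the core on either strand (CACGT and CACGC are its reverse complements). They cover chr12:73907617-73907866 (plus strand) for Hif1a, chr12:54203875-54204124 (minus strand) for Egln3, chr8:124949255-124949504 (minus strand) for Egln1 and chr7:27166803-27167052 (minus strand) for the first of the Egln2 starts.
Hif1a: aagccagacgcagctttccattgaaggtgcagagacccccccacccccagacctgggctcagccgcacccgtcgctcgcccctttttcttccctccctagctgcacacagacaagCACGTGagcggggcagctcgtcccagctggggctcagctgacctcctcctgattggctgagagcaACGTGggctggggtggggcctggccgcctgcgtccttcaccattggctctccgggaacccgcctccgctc
Egln3: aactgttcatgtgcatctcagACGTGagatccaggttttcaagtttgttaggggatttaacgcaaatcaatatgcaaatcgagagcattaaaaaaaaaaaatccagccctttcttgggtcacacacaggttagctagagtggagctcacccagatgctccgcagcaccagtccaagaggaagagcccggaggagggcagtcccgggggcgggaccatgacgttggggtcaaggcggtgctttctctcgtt
Egln1: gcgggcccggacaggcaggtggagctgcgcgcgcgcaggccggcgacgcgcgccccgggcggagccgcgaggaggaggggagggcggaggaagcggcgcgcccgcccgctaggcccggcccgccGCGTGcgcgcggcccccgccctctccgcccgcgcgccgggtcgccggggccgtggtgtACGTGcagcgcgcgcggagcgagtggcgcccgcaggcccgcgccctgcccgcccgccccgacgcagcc
Egln2: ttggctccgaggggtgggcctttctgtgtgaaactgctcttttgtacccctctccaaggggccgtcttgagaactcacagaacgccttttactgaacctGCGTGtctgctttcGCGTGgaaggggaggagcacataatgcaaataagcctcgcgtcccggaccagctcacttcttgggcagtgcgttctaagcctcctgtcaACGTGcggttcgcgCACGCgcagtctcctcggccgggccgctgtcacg
The Hif1a promoter held 3 matches, 2 of which overlap as CACGTG, the Egln3 promoter 1, the Egln1 promoter 2 and the first Egln2 promoter 4. The promoter of the other Egln2 start, not shown, held 1. Among the other members with an entry, Hif3a held 2 matches, Arnt held 1, and Arnt2, Vhl and Hif1an held 0; Epas1 has no entry. Of all 32851 mouse promoters of this length, 38.6% held at least 1 match. A match is a match of letters and does not show binding.

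The libraries held between 23747014 and 27159228 counted reads in WT and between 26542930 and 31393393 in KO. Levels are given below in CPM, read counts scaled to a common library size, after TMM scaling, a correction for library composition. Sdhaf4 itself fell from 25.2 ± 5.80 CPM (mean ± SD, n = 6) in WT to 2.40 ± 0.170 in KO (n = 6), in all 6 KO hearts. The lowest WT heart, replicate 6, lay at 14.3 CPM, beside 24.1 to 30.3 in the other WT hearts. The transcriptome differed widely: of 17155 rows tested with edgeR's quasi-likelihood test, 25.6% were higher and 25.5% lower in KO at an adjusted p under 0.05, 51.1% in either direction. Against this background, 5 of the 9 members tested were higher (Hif1a, Epas1, Hif3a, Egln3 and Hif1an), 0 were lower and 4 did not pass. The median log2 fold change of the 9 was 0.21, beside 0.00 over all rows (quartiles -0.30 and 0.30). In 4 of the 9 every KO library was above every WT library, which held for 14.9% of all rows tested. At the study's own limits (adjusted p under 0.005 and a change past 1 on the log2 scale) only Egln3 passed as higher, beside 5.36% of all rows, and 0 passed as lower, beside 4.87%. In bulk tissue fewer cells of a type and less RNA per cell cannot be told apart.

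**Figure D1:**
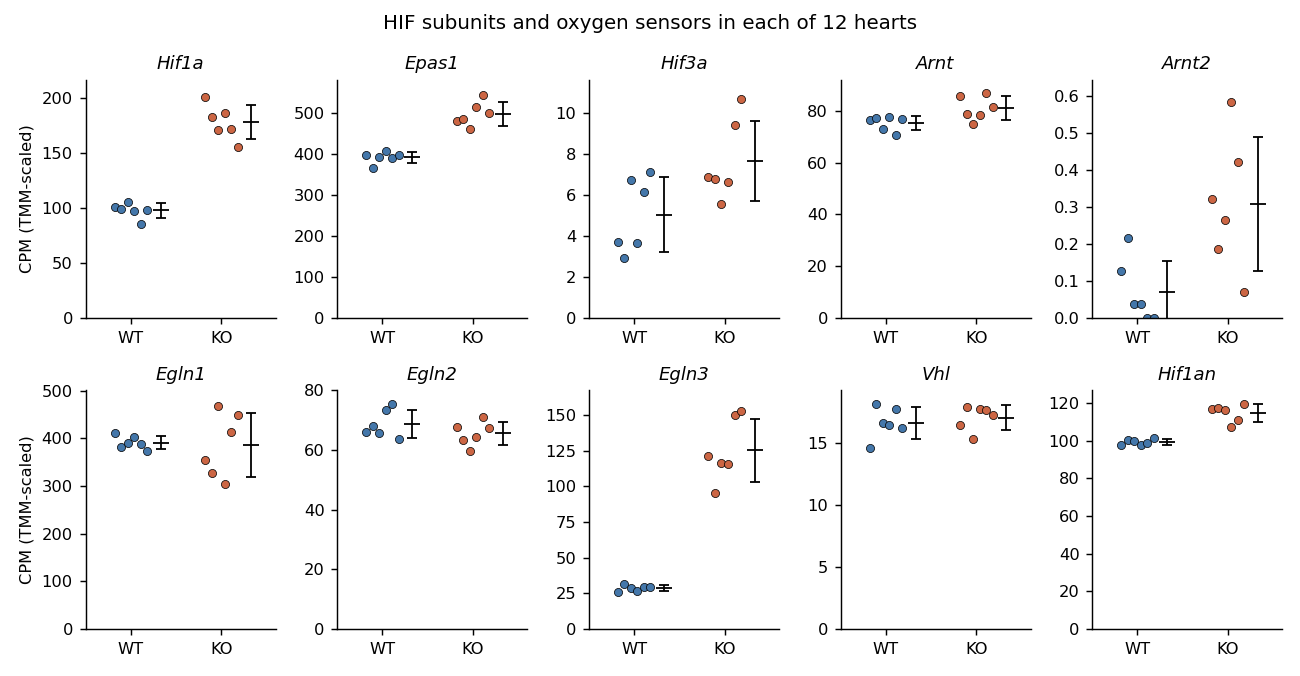
TMM-scaled CPM of the 10 genes in each heart (points; blue WT, orange KO, 6 each), with the mean ± SD at the side of each group; the lower bar of Arnt2 in WT is cut at 0. The groups are apart for Hif1a, Epas1, Egln3 and Hif1an, and the KO hearts spread widely for Egln1, from 305 to 469 CPM.

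Hif1a encodes the most widely expressed alpha subunit, HIF-1 alpha. Its lowest, median and highest levels were 85.9, 98.8 and 105 CPM in WT and 156, 177 and 201 CPM in KO. The groups did not overlap, and the KO level was 1.82-fold the WT level, a log2 fold change of 0.86 (SE 0.06, edgeR adjusted p = 8.5e-09). An unnamed row on the opposite strand overlaps the gene over 22570 bases with 107 to 311 counts per library, beside 2123 to 6253 for Hif1a; whether the counting used strand is not given in the sources used here, and without it these reads cannot be told apart. The genes whose profile over the 12 libraries was most like that of Hif1a were Cox19, Rhoc and Pdgfra, out of 10047 named genes at 5 CPM or more. Their root-mean-square differences on the log2 scale were 0.104, 0.105 and 0.109, with each gene centred on its own WT mean. A gene with a similar change from WT to KO thus ranks high by this measure (log2 fold changes of 0.75, 0.77 and 0.87, in that order). Pdgfra, a receptor of platelet-derived growth factor, is also one of 10 fibroblast markers. All 10 were higher in KO, beside 25.6% of all rows, with a median log2 fold change of 1.37. Their summed level ran from 1595 to 1881 CPM in WT and from 3049 to 5484 in KO, without overlap, and its part in the Hif1a result was not tested.

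Epas1 encodes HIF-2 alpha, the alpha subunit known from vessels and from interstitial cells. Its lowest, median and highest levels were 365, 395 and 406 CPM in WT and 460.4, 493.3 and 544 CPM in KO. These groups also lay apart, by a smaller step of 1.27-fold (log2 fold change 0.35, SE 0.05, edgeR adjusted p = 2.24e-05). Of 9 endothelial markers, 5 were higher and 1 lower in KO, beside 25.6% and 25.5% of all rows, with a median log2 fold change of 0.23. The lower one, Tek, is also counted among the HIF targets below. The summed level of the 9 overlapped between the groups (3076 to 3501 CPM in WT, 3021 to 3598 in KO). Fabp4, the most abundant, weighs heavily in this sum. Its mean was 1635 CPM in WT and 1551 in KO, and it did not pass, beside 3228 and 3355 CPM for the mean sums. The part of the endothelial share in the Epas1 result was not tested. The profiles most like that of Epas1 were those of Ccny (0.0354), Lrp5 (0.0520) and Caskin2 (0.0529).

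Hif3a encodes the least abundant alpha subunit here, some of whose splice forms oppose the others. It was at 2.96, 4.94 and 7.15 CPM in WT (lowest, median, highest) and at 5.60, 6.85 and 10.7 CPM in KO, from 82 to 187 counts per WT library and 169 to 297 per KO library. The ranges overlapped, since WT replicates 3, 5 and 6 lay at 6.15 CPM and above and only replicates 1, 2 and 4 at 3.72 CPM and below. The fitted log2 fold change was 0.60 (SE 0.23, edgeR adjusted p = 0.0376), and this call was the least firm of the 5. It was lost without WT replicate 1 (adjusted p = 0.0850), 2 (0.0738) or 4 (0.0853), without KO replicate 5 (0.0806) or 6 (0.0906), and with no filter on low counts (0.0614). The profile of Hif3a was most like those of Plekhf1 (0.232), Bcl2l1 (0.285) and Pld1 (0.288). These differences were larger than for the other alpha subunits, whose counts were far higher, and the part of counting noise in this was not tested.

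The beta subunits pair with the alpha subunits to bind DNA. Arnt, also called HIF-1 beta and shared with the aryl hydrocarbon receptor, was at 70.7, 76.6 and 77.4 CPM in WT (lowest, median, highest) and at 74.8, 80.1 and 86.8 CPM in KO. The groups overlapped and the log2 fold change of 0.11 (SE 0.05) missed the threshold (edgeR adjusted p = 0.0733), although it passed without KO replicate 3 (0.12, adjusted p = 0.0339). Arnt2, a paralogue best known from neurons, was barely detected, with 0 to 6 reads per WT library (11 in all) and 2 to 17 per KO library (55 in all). It failed the filter on low counts and was not tested in the fit across genes. On its CPM alone an exact permutation test over the 12 hearts gave a two-sided p of 0.0130, at levels under 0.6 CPM in every heart.

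The prolyl hydroxylases parted from each other. Egln3 (PHD3), itself known as a HIF target, lay at 25.6, 29.0 and 31.1 CPM in WT (lowest, median, highest) and at 95.2, 119 and 153 CPM in KO. The lowest KO heart was far above the highest WT heart, and the change was 4.397-fold (log2 fold change 2.14, SE 0.10, edgeR adjusted p = 7.3e-10), the largest of the members. Egln1 (PHD2), the main prolyl hydroxylase for HIF-1 alpha in normoxia and a known HIF target as well, lay at 373, 389 and 412 CPM in WT and at 305, 385 and 469 CPM in KO. Its means were close (391 ± 14.1 and 386 ± 67.3 CPM, SD, n = 6 each), and the log2 fold change was -0.02 (SE 0.09, edgeR adjusted p = 0.888). The KO hearts took both sides of the WT range, with replicates 3, 5 and 6 above it and replicates 1, 2 and 4 below it. Leaving out KO replicate 1, 2 or 4 turned the sign (0.01, 0.03 and 0.04). Egln2 (PHD1) lay at 63.9, 67.1 and 75.4 CPM in WT and at 59.8, 65.9 and 71.1 CPM in KO, overlapping, with a log2 fold change of -0.07 (SE 0.05, edgeR adjusted p = 0.316). Its row overlaps that of Cyp2t4 by 11 bases.

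Among the KO hearts, Egln3 was highest in replicates 5 and 6 and Egln1 in replicates 3, 5 and 6, and Hif1a followed another order. The KO heart with the most Egln3 (replicate 6, 153 CPM) had the least Hif1a of the KO hearts (156 CPM). The KO heart with the most Hif1a (replicate 1, 201 CPM) had an Egln3 level of 121 CPM. These orders are given as a description of 6 hearts.

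Vhl and Hif1an act on the hydroxylated alpha subunit and on its activity. Vhl lay at 14.5, 16.5 and 18.1 CPM in WT (lowest, median, highest) and at 15.3, 17.4 and 17.9 CPM in KO, with every KO heart inside the WT range. The log2 fold change was 0.04 (SE 0.07, edgeR adjusted p = 0.691). Hif1an lay at 97.7, 99.3 and 101 CPM in WT and at 107, 116 and 119.6 CPM in KO. Though only 1.16-fold, this change separated all hearts, since the WT hearts varied by only 1.51 CPM (SD), and it passed the test (log2 fold change 0.21, SE 0.04, edgeR adjusted p = 0.0004).

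**Figure D2:**
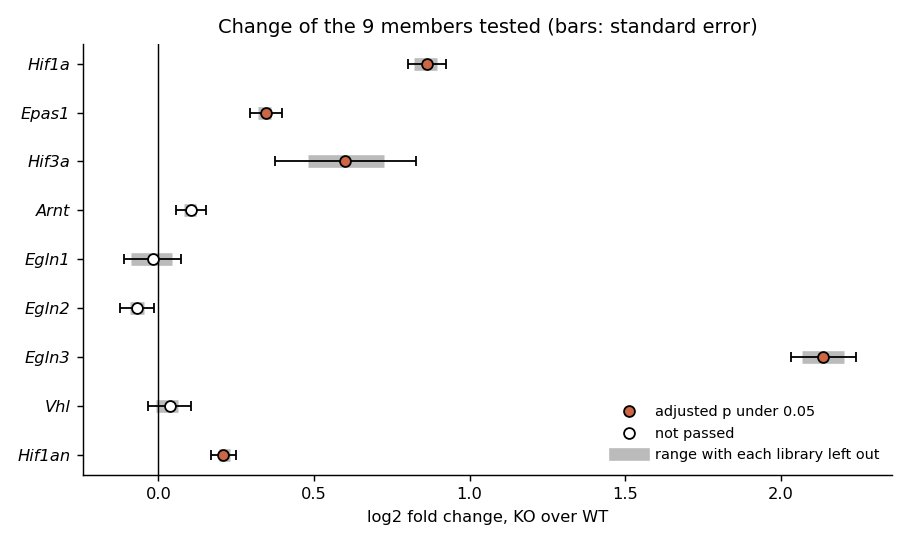
Log2 fold change, KO over WT, of the 9 genes tested, with standard errors (bars) and the range found when each library was left out in turn (grey). Filled points have an edgeR adjusted p under 0.05; Egln3 stands at 2.14 and Hif1a at 0.86, while Egln1, Egln2 and Vhl lie near 0.

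To ask whether the members changed against each other, 7 ratios of read counts within a library were compared by two-sided exact permutation tests over the 12 hearts, whose smallest possible p is 0.00216, with Benjamini-Hochberg adjustment over the 7. Hif1a rose against Epas1, from a mean ratio of 0.251 ± 0.0191 (SD, n = 6) to 0.359 ± 0.0403 (n = 6), a log2 difference of 0.52 (SE 0.08, exact adjusted p = 0.00303). It also rose against its partner Arnt, from 1.302 to 2.21 (log2 difference 0.76, SE 0.07, exact adjusted p = 0.00303). The same change seen from the other side was a fall of Vhl per Hif1a from 0.170 to 0.0960 and of Hif1an per Hif1a from 1.02 to 0.648, each with an exact adjusted p of 0.00303. Egln3 per Egln1 went from 0.0730 to 0.327, a log2 difference of 2.16 (SE 0.11, exact adjusted p = 0.00303). In these 5 ratios the groups did not overlap. Each holds Hif1a or Egln3, whose own levels already parted the groups, and the share of all gene pairs that do so was not computed. Hif1a per Hif3a (log2 difference 0.21, SE 0.29, exact adjusted p = 0.495, and 0.099 to 0.36 with 1 library left out) and Egln2 per Egln1 (-0.03, SE 0.12, exact adjusted p = 0.790) did not pass. The ratios share genes, so they are not 7 separate findings.

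**Figure D3:**
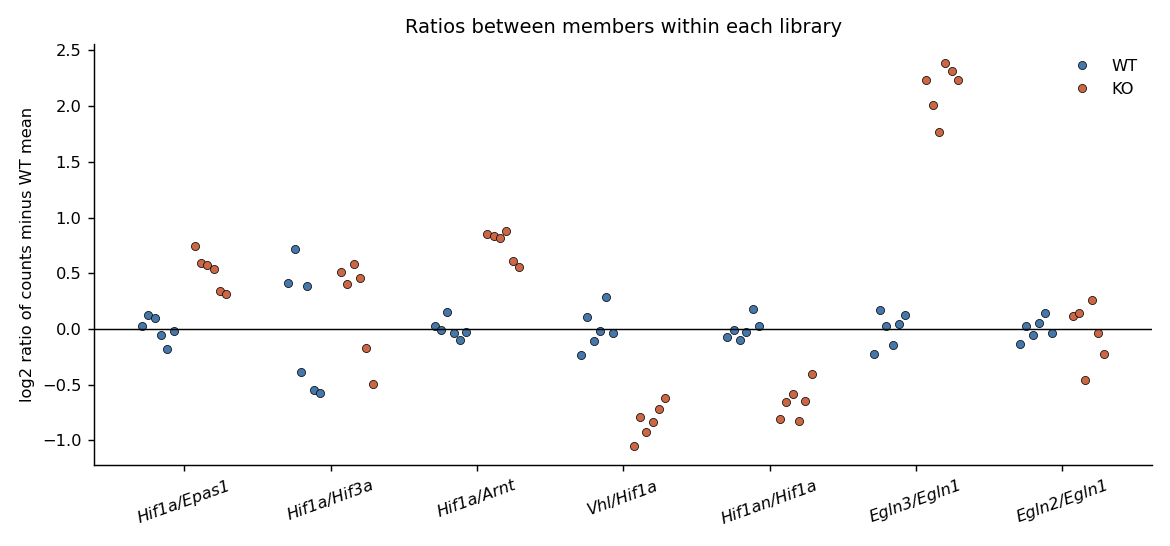
Log2 ratio of the read counts of 2 members in each heart, minus the WT mean of that ratio (blue WT, orange KO, 6 each). The groups are apart for 5 ratios, and for Hif1a/Hif3a and Egln2/Egln1 they overlap.

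Levels were compared between genes only per length, as FPKM (fragments scaled to gene length and library size). The FPKM of the authors used a shorter length than the one listed in the table for 6 members, 1819 in place of 4339 bases for Hif1a, so orders are given on both lengths. On the authors' FPKM the WT order by mean was Egln1 (126), Epas1 (72.8), Egln2 (57.7), Hif1a (53.8), Arnt (32.1), Hif1an (28.1), Vhl (16.2), Egln3 (10.7), Hif3a (2.14) and Arnt2 (0.0118), and of these neighbours only Egln2 and Hif1a overlapped. In KO, Hif1a (98.1 FPKM) stood beside Egln1 (124) and Epas1 (92.7), overlapping both, and Egln3 (47.1) moved up beside Egln2 (55.2) and Arnt (34.6), again overlapping both. Hif1an (32.5) overlapped Arnt, and Vhl (16.65), Hif3a (3.25) and Arnt2 (0.0521) followed apart. With the listed lengths Hif1a was lower, at 22.6 in WT and 41.1 in KO, and stayed below Epas1 in every heart. Egln3 then stood above Vhl already in WT (10.7 against 5.93) and above Hif1a in KO (47.1 against 41.1), where the ranges of these genes overlapped.

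Within the alpha subunits, Hif1a made up 41.8% ± 1.96 (SD, n = 6) of the summed FPKM in WT and 50.5% ± 2.96 in KO (n = 6), and Epas1 56.6% ± 1.76 and 47.8% ± 2.58. Hif3a made up 1.66% in WT and 1.68% in KO. With the listed lengths the Hif1a share was 23.5% and 30.5%. The summed FPKM of the alpha subunits went from 129 ± 5.21 to 194 ± 13.9, without overlap between the groups. Within the prolyl hydroxylases, Egln3 went from 5.50% ± 0.527 to 20.7% ± 2.08 of the summed FPKM (6.32% and 23.2% with the listed lengths), while Egln1 went from 64.9% to 54.8% and Egln2 from 29.6% to 24.6%. Their summed FPKM was 195 ± 3.78 in WT and 227 ± 24.8 in KO and overlapped, and the KO hearts with the largest sums were replicates 3, 5 and 6.

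**Figure D4:**
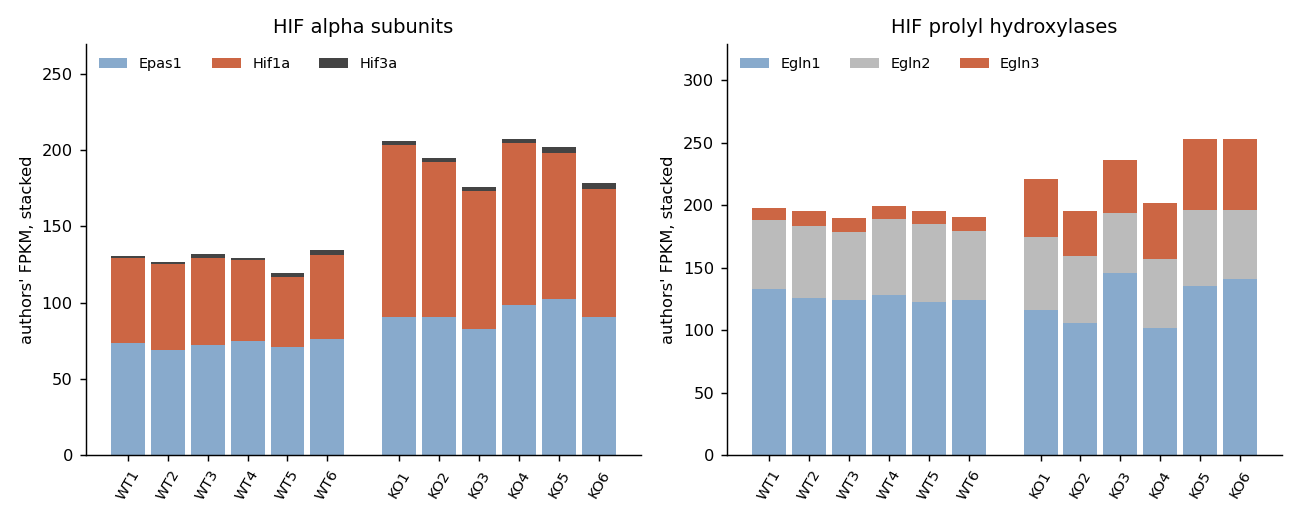
Authors' FPKM of the alpha subunits (left) and of the prolyl hydroxylases (right), stacked for each heart. Hif1a widens in every KO heart on the left, and Egln3 on the right goes from a mean of 10.7 to 47.1 FPKM.

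The partners of VHL in its ubiquitin ligase, 4 genes, were each within 0.25 of WT on the log2 scale. The scaffold Cul2 was higher in KO (46.7 to 55.6 CPM, log2 fold change 0.25, edgeR adjusted p = 3.41e-04), as was the RING protein Rbx1 (61.0 to 69.0 CPM, 0.18, adjusted p = 0.0141). The adaptor Eloc was lower (77.1 to 68.1 CPM, -0.18, adjusted p = 0.00829), and its partner Elob lay at 147 CPM in both groups (adjusted p = 0.979), on a row that overlaps Srrm2. In all, 2 of the 4 were higher and 1 was lower, beside 25.6% and 25.5% of all rows.

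Of 32 other tested genes whose proteins modify, stabilise or assist HIF, 11 were higher (34.4%), 6 lower (18.8%) and 15 did not pass, with a median log2 fold change of 0.06, so their counts lay near the background of 25.6% and 25.5%. Of those called at 5 CPM or more, the higher ones with the smallest p were Pkm, pyruvate kinase (886 to 1699 CPM, log2 fold change 0.94), the growth kinase Mtor (64.1 to 98.3 CPM, 0.62), the inducible chaperone Hsp90aa1 (52.8 to 73.8 CPM, 0.48) and Wtip, a LIM-domain protein (12.7 to 20.3 CPM, 0.68). The Mtor row overlaps other rows, Angptl7 among them. The 4 lower ones with the smallest p at that level were P4htm, a transmembrane prolyl hydroxylase that can act on HIF alpha (15.3 to 8.72 CPM, -0.81), the coactivator Ncoa2 (91.9 to 63.5 CPM, -0.53), the constitutive chaperone Hsp90ab1 (1396 to 1089 CPM, -0.36) and the proteasome-associated Psmd10 (14.5 to 11.7 CPM, -0.31), and these 8 genes had edgeR adjusted p-values of 0.00307 or below. The 2 cytosolic HSP90 genes, whose product holds HIF-1 alpha stable, thus went opposite ways. The HIF subunits belong to the wider bHLH-PAS family. Ncoa2, lower as given above, and Ncoa1, which did not pass (0.08, edgeR adjusted p = 0.227), are also of this family but were counted with the modifiers. Of 7 other tested genes of the family, 1 was higher, the coactivator Ncoa3 (55.5 to 65.5 CPM, 0.24, edgeR adjusted p = 0.00814, on a row that overlaps Sulf2), and 1 was lower, the clock factor Npas2 (11.2 to 5.95 CPM, -0.91, adjusted p = 0.00121). Each is 14.3% of the 7, beside 25.6% and 25.5% of all rows.

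Genes known as HIF targets, listed without the members, were mostly higher. Of 50 tested, 42 were higher (84.0%, beside 25.6% of all rows), 4 lower (8.0%, beside 25.5%) and 4 did not pass, with a median log2 fold change of 0.69. The list was drawn up with earlier results of these data known, so its direction is not independent evidence. The higher ones with the smallest p were genes of glycolysis and of nucleotide balance. Pfkp, a phosphofructokinase, went from 75.4 to 309 CPM (2.04, edgeR adjusted p = 3.39e-11), the enolase Eno1 from 86.0 to 250.1 CPM (1.54, adjusted p = 3.56e-11), the adenylate kinase Ak4 from 20.6 to 58.6 CPM (1.51, adjusted p = 3.41e-10) and the phosphoglycerate kinase Pgk1 from 349 to 718 CPM (1.04, adjusted p = 6.44e-10). Eno1 and Pgk1 have processed copies elsewhere in the genome, so how their reads were assigned is uncertain, and the Pfkp row overlaps Pitrm1. The 4 lower targets were Bnip3, a mitophagy receptor (337 to 195 CPM, -0.79), Angptl4, an inhibitor of lipoprotein lipase (111 to 43.8 CPM, -1.33), the endothelial receptor Tek (144 to 116 CPM, -0.30) and the MYC antagonist Mxi1 (82.1 to 66.8 CPM, -0.30, on a row that overlaps Gm10197), with edgeR adjusted p-values of 0.00347 or below. Many targets answer to other factors too. Besides the fibroblast markers given above, the summed level of 10 cardiomyocyte markers ran from 61213 to 68398 CPM in WT and from 48300 to 68836 in KO, with 1 higher and 6 lower. The summed mural-cell markers ran from 3581 to 3917 CPM in WT and from 3870 to 5028 in KO. Of the 10, 4 were higher (Rgs5, Pdgfrb, Notch3 and Des) and 3 lower (Acta2, Cnn1 and Abcc9). Des, the most abundant, went from a mean of 1861 to 2583 CPM, beside 3794 to 4553 for the sum. The sum thus mostly follows Des and is not read here as a level of mural cells. Of 8 leukocyte markers, 1 was higher and 2 lower, with Itgam at 0, and of 3 erythroid markers 0 passed. The counts in these marker lists stand beside 25.6% higher and 25.5% lower over all rows. The part of these lists in the results was not tested.

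**Figure D5:**
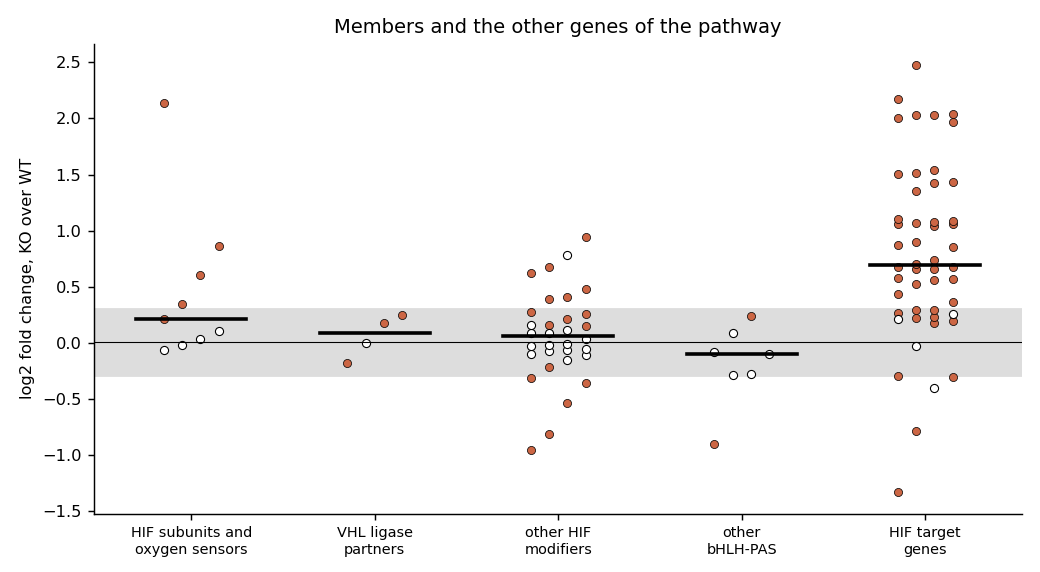
Log2 fold change, KO over WT, of each tested gene in 5 lists (points; filled where the edgeR adjusted p was under 0.05), with the list median (bar) and the range between the quartiles of all 17155 rows (grey band). The HIF targets, with a median of 0.69, lie mostly above the band.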

How the data were processed

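Polyadenylated RNA from the ventricular wall of 12 hearts was sequenced by the authors, 6 WT and 6 KO, and each library was taken as 1 replicate. According to the submitters' processing notes, reads were aligned with HISAT2 2.0.5 and mm10 is named as the build; the methods name HTSeq for counting. The deposited table gives read counts per gene and library, FPKM values made by the authors from these counts, and mean signal per group, which was not used. The identifiers of its genes belong to the C57BL/6NJ strain's assembly, and its coordinates differ from those of mm10, so none is printed. Columns with the authors' own fold changes, p-values and calls were not used. 23747014 to 31393393 reads per library were counted to genes, and in a chi-square test of counts no pair within a group looked like 1 library deposited again (6.99 to 48.6 per degree of freedom).

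Counts were fitted in edgeR 4.0.16 (R 4.3.3) with TMM scaling, filterByExpr (17155 rows kept) and the robust quasi-likelihood test, with Benjamini-Hochberg adjustment over all rows. The steps were tested on simulated data, in which far fewer genes changed than here and replicate variation was set alike for every gene. That test therefore does not cover changes as wide as these. Rows with no gene name took a symbol from the table's pathway annotation where it gave exactly 1, which named Eno1, Pgk1, Hsp90aa1 and Vegfa. Siah1a and Pgam1 were not analysed here. Ratios were tested by exact permutation. The FPKM alternative used a pseudocount of 0.1. Other alternatives were other scalings and filters, DESeq2 1.42.0, limma 3.58.1, a replicate block and leaving out each library. From the other lists of the pathway, all VHL ligase partners and the 4 called genes with the smallest p in each direction at 5 CPM or more are named, and the 3 genes with the most similar profile are named for each alpha subunit. The members and lists were chosen with earlier results of these data known. The study's text describes 6 mice per group, and the labels do not tie each library to an animal. Promoters were taken from RefSeq for GRCm38.p6, and 9 of the 10 members had an entry.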

Additional observations from a re-analysis of the deposited data

Results flagged for a closer look

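Of 80 groups of 6 values examined, 3 held a heart that stood apart from the other 5 by Dixon's test at the 95% level, where chance alone gives about 4. None of the 3 was a HIF subunit or an oxygen sensor. Sdhaf4 in KO replicate 1 lay at 2.73 CPM, above 2.25 to 2.41 in the other KO hearts. Hsp90aa1 in WT replicate 5 lay at 56.8 CPM, above 51.3 to 52.7 in the other WT hearts. Pfkp in WT replicate 6 lay at 92.0 CPM, above 66.0 to 75.4 in the other WT hearts.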

How the results depend on the processing

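Under the alternatives that kept all 12 libraries, 98 of 99 results for single members kept their direction and their side of the threshold. The exception was Hif3a with no filter on low counts, with the same log2 fold change of 0.60 at an adjusted p of 0.0614; Arnt2, tested only there, was called (2.05, adjusted p = 0.0261) at 11 reads in all WT libraries. With 1 library left out, log2 fold changes ran from 0.82 to 0.90 for Hif1a, 0.32 to 0.36 for Epas1, 0.48 to 0.72 for Hif3a, 0.082 to 0.12 for Arnt, -0.087 to 0.043 for Egln1, -0.092 to -0.047 for Egln2, 2.07 to 2.21 for Egln3, -0.0063 to 0.062 for Vhl and 0.19 to 0.23 for Hif1an. The sign of Vhl turned only without WT replicate 1, and the sign of Egln2 per Egln1 (-0.092 to 0.053) without KO replicate 3 or 6. Members called higher numbered 4 to 6, and targets called higher 37 to 41.

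The replicate numbers of the labels did not pair the hearts: same-numbered WT and KO hearts correlated at -0.16 to 0.02 in their deviations, and 1 of 6 correlated best with its own number. With the replicate block, 4123 rows were higher and 4110 lower, beside 4391 and 4376 without it, and 5 members were higher. Counts below about 10 per library limit Arnt2.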
